A study of Bos grunniens x Bos taurus and Bos grunniens with 6 samples.

Results

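The DMRT family consists of transcription factors that bind DNA through the DM domain, a zinc-binding module first described in the sex-determination proteins doublesex of the fly and mab-3 of the worm. Its genes were taken here as every entry of the expression table whose symbol, ignoring case, was DMRT1, DMRT2, DMRT3, DMRTA1, DMRTA2, DMRTB1 or DMRTC2. These 7 symbols stood on 8 of the 18918 genes of the table, since DMRTC2 was carried by 2 genes. The one with the higher mean over all 6 libraries (ENSBGRG00000014389, 63.2 against 56.5 FPKM, though the lower one in cattle-yak) is called DMRTC2a and the other (ENSBGRG00000024296) DMRTC2b, names that are used here only to tell them apart. RNA-seq libraries were made from testis tissue of 3 cattle-yak (TES5, TES6 and TES7), which were F1 sons of Jersey bulls and Gannan yak cows, and of 3 male Gannan yaks (Yak8, Yak9 and Yak10). Each library came from 1 animal, and all the animals were 4 years old. Cattle-yak testes were collected by castration, those of the yaks once the animals had been euthanized, and the groups came from different counties, so these conditions cannot be told apart from the cross. Values are FPKM, that is fragments scaled to the length of the gene model and the depth of the library, so levels of different genes may be compared.

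In mammals several DMRT genes act in the gonad. DMRT1 is made by Sertoli cells, where it maintains the male fate, and by spermatogonia, where it restrains entry into meiosis. DMRTB1, also known as DMRT6, is made when spermatogonia pass from mitosis to meiosis, and DMRTC2, also known as DMRT7, belongs to pachytene spermatocytes and the condensed sex chromosomes of that stage. The remaining members are better known from other tissues, DMRT2 from the somites, DMRT3 from spinal cord interneurons, and DMRTA1 and DMRTA2 from the ovary and the forebrain, respectively. F1 male cattle-yak are sterile and their germ cells arrest around meiosis, so the comparison asked how genes that act on both sides of that step stood in the hybrid testis.

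Behind the FPKM values lay 11175100 to 11834987 fragments on genes in the cattle-yak libraries and 12991641 to 13136129 in the yak libraries, recovered as whole numbers from the FPKM values. A fragment on a gene of 1 kb stood for 0.0761 to 0.0895 FPKM. The tissue carried testis markers in every library. The summed FPKM of 13 Sertoli cell markers reached 2683 to 2853 in the cattle-yak libraries and 527 to 605 in the yak libraries, and that of 13 spermatogonia markers 366 to 443 and 83.3 to 104. For early spermatocytes (9 genes measured) the cattle-yak libraries ranged from 255 to 421 and the yak libraries from 405 to 437, for pachytene spermatocytes (7 genes) 122 to 202 and 631 to 719, and for elongating spermatids (8 genes) 21.0 to 104 and 10757 to 13160. In bulk tissue fewer cells of a type and less RNA per cell cannot be told apart. Leydig cell and myoid cell markers were also higher in cattle-yak (6 of 6 genes called in either list, against 33.4% of all tested genes). Other somatic lists were mixed. Of 6 endothelium markers 3 were called higher and 1 lower, and of 5 tested macrophage markers 2 higher and 2 lower, where 20.8% of all tested genes were lower. Of the genes of these lists, 0 were at 0 in all libraries of a group. Over all tested genes the median log2 (foldchange) lay at 0.51 in favour of cattle-yak, and it was 0.01 after scaling with size factors of the median-of-ratios kind.

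With FPKM as deposited, the testes of cattle-yak had more DMRT1 and DMRTC2b and less DMRTC2a than those of yak, while the groups overlapped in DMRTB1, although no member was called higher relative to the Sertoli or the spermatogonia markers. Genes with a mean of at least 0.5 FPKM over the libraries were compared with limma on log2 (FPKM + 1), and a call required a p under 0.05 after Benjamini-Hochberg adjustment over all 15042 tested genes together with a log2 (foldchange) beyond 1. Of the 8 genes, 7 were tested, and DMRTA2 lay just under the minimum, with a mean of 0.493 FPKM. Of these 7 genes, 2 were called higher in cattle-yak, where 33.4% of all tested genes were, and 1 was called lower, where 20.8% were, so that 3 of 7 were called against 54.2% of all tested genes. By the adjusted p alone 5 of the 7 passed, against 81.9% of all tested genes, namely 3 higher (52.6% of all) and 2 lower (29.2% of all). The groups were free of overlap in 5 of the 7 genes, against 84.1% of all tested genes. The median log2 (foldchange) of the 7 genes was −0.09, below that of all tested genes. Counts of calls in the family were therefore not above those of the table as a whole, and what follows concerns the single genes.

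**Figure D1:**
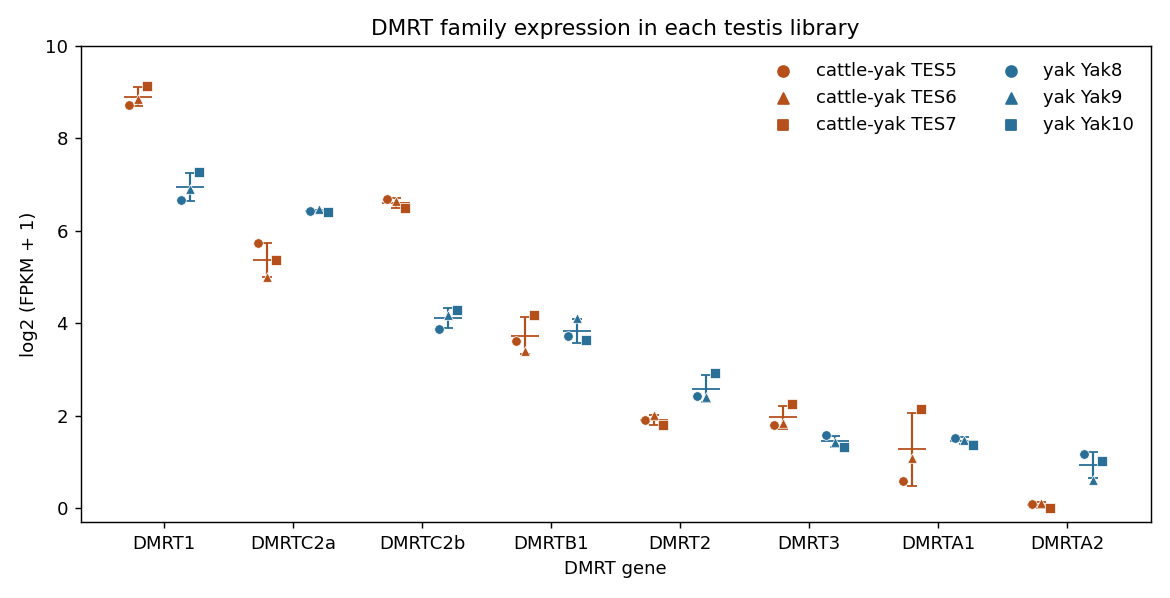
Log2 (FPKM + 1) of the 8 DMRT genes in each of the 6 testis libraries, with marks for single animals, long dashes for group means and bars for 1 SD (n = 3). With FPKM as deposited, DMRT1, DMRTC2b and DMRT3 of cattle-yak lie above all yak libraries and DMRTC2a, DMRT2 and DMRTA2 below them. The groups overlap in DMRTB1 and DMRTA1. When centred on Sertoli markers, the log2 (foldchange) of DMRT1 turned to −0.35 and that of DMRT3 to −1.79.

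DMRT1 (ENSBGRG00000003868, gene model of 1503 bases) was the most abundant member in both groups. It had 422, 462 and 561 FPKM in TES5, TES6 and TES7, and 100.2, 119.8 and 153.8 FPKM in Yak8, Yak9 and Yak10. All the cattle-yak libraries were above all the yak libraries, with the lowest cattle-yak value well beyond the highest yak value. The means were 482 ± 71.6 FPKM in cattle-yak and 124.6 ± 27.1 in the yaks (SD, n = 3), a ratio of 3.87. By level DMRT1 ranked 116 of all genes in cattle-yak and 978 in yak. The log2 (foldchange) of DMRT1 came to 1.95 (standard error 0.17, 95% interval 1.56 to 2.35, adjusted p = 1.3e-05 from limma), which is 1.44 above the median of all tested genes, but −0.35 once each library was centred on the Sertoli markers. Centred on the spermatogonia markers, the log2 (foldchange) of DMRT1 was 0.31 (adjusted p = 0.214 from limma). The difference between the groups in DMRT1 was thus close in size to those of both marker lists. The tested genes of these lists had medians of 2.35 (12 of 12 called higher) and 1.91 (8 of 12 called higher), where 33.4% of all tested genes were called higher. The part of these cells in the level of DMRT1 was not tested.

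DMRTC2a, the gene that carries the full description of DMRTC2 in the table (gene model of 1618 bases), ran the other way. It had 52.1 FPKM in TES5, 31.1 in TES6 and 40.3 in TES7, against 84.9, 87.3 and 83.7 in Yak8, Yak9 and Yak10. Every cattle-yak value was below every yak value, and the yak animals were close to each other. The means were 41.2 ± 10.5 FPKM in cattle-yak and 85.3 ± 1.87 in the yaks (SD, n = 3), so that yak had 2.07 times the level of cattle-yak. The log2 (foldchange) of DMRTC2a was −1.06 (standard error 0.17, 95% interval −1.45 to −0.67, adjusted p = 4.5e-04 from limma), which is close to the threshold, and was −0.88 without TES6 and so no longer past it. Relative to the median of all tested genes it was −1.57. TES6 had the lowest DMRTC2a of the 6 libraries and also the lowest sum of the early spermatocyte markers, 255 FPKM. The lowest sum of the pachytene markers, 122 FPKM, was instead that of TES7, where DMRTC2a was higher than in TES6. Centred on the early spermatocyte markers, the log2 (foldchange) of DMRTC2a was −0.79 (adjusted p = 6.4e-03 from limma). Of 7 tested pachytene markers 5 were called lower, where 20.8% of all tested genes were, and the median of the list was −2.65. The other markers, AURKC and CDC25C (named after their values were seen), were at 0.63 (adjusted p = 0.0123 from limma) and −0.32 (adjusted p = 0.101). The part of these cells in the level of DMRTC2a was not tested.

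DMRTC2b (gene model of 705 bases) had the same symbol and the same 7 GO terms as DMRTC2a but no description, and its values took the opposite course. It had 101.8, 99.0 and 88.7 FPKM in TES5, TES6 and TES7, and 13.6, 17.2 and 18.6 in Yak8, Yak9 and Yak10. The lowest cattle-yak value, in TES7, was far above the highest yak value, in Yak10. These values rested on 2354 fragments in cattle-yak and 455 in yak. The means of 96.5 ± 6.91 FPKM in cattle-yak and 16.5 ± 2.56 in the yaks (SD, n = 3) differed 5.86-fold. The log2 (foldchange) of 2.49 (standard error 0.13, 95% interval 2.19 to 2.79, adjusted p = 9.4e-07 from limma) was the largest of the 7 tested members on the scale of log2 (FPKM + 1), where DMRTA2 was not tested. It was 0.85 when centred on the spermatogonia markers (adjusted p = 2.4e-03 from limma), short of the fold-change threshold, and 0.18 when centred on the Sertoli markers (adjusted p = 0.294). In every cattle-yak library DMRTC2b exceeded DMRTC2a in FPKM, by 1.95 to 3.18 times, and in every yak library it reached only 0.160 to 0.222 of it. In fragments, DMRTC2b and DMRTC2a had 849 and 997 in TES5, 780 and 563 in TES6, and 725 and 756 in TES7. In TES5 and TES7 their order thus rests on the lengths of the gene models to which FPKM is scaled, while in TES6 DMRTC2b also had more fragments. The lengths given here were recovered from the FPKM values. Both genes are uncertain insofar as reads of closely similar copies can be split or lost in counting, and their sequences were not compared here. Whether DMRTC2b is a true copy of DMRTC2, a partial gene model or another gene of the family is not known, which limits what its values and any sum of both genes stand for. 

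**Figure D2:**
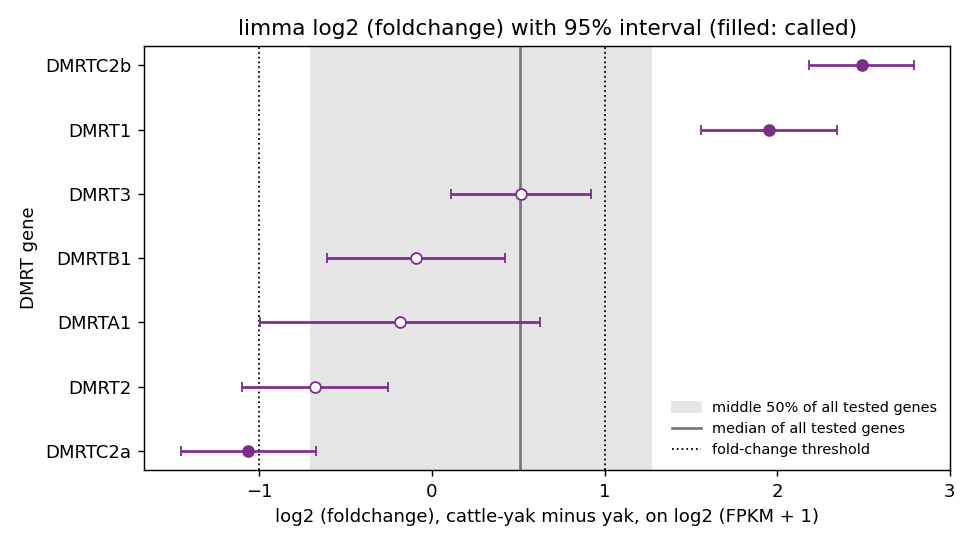
Log2 (foldchange) of the 7 tested DMRT genes from limma (points, filled where both thresholds were passed) with 95% intervals, beside the median and the middle 50% of all 15042 tested genes. The 2 genes with the symbol DMRTC2 form the opposite ends, at 2.49 and −1.06, and DMRT3 lies on the median of all genes, 0.51.

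DMRTB1 (ENSBGRG00000002091, gene model of 2270 bases) overlapped between the groups with FPKM as deposited. It had 11.3, 9.58 and 17.3 FPKM in TES5, TES6 and TES7, and 12.3, 16.5 and 11.5 FPKM in Yak8, Yak9 and Yak10. The highest and the lowest of the 6 values were both from cattle-yak. The means were 12.7 ± 4.05 FPKM in cattle-yak and 13.4 ± 2.69 in the yaks (SD, n = 3). Its log2 (foldchange) of −0.09 did not pass the test (95% interval −0.61 to 0.42, adjusted p = 0.705 from limma), and it turned to 0.18 when centred on the early spermatocyte markers and to 0.07 without TES6 and 0.05 without Yak9. With median-of-ratios scaling it was −0.67 (adjusted p = 0.0266 from limma), short of the fold-change threshold. Centred on the spermatogonia and the Sertoli markers DMRTB1 was at −1.74 and −2.40 and called lower, as were 8187 and 11465 of the 15042 tested genes, and relative to the median of all tested genes it was −0.61 in both cases.

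DMRT2 and DMRT3 were present at a few FPKM each. For DMRT2 (ENSBGRG00000003984) the values were 2.76, 3.08 and 2.48 FPKM in cattle-yak, in the order TES5 to TES7, and 4.37, 4.32 and 6.66 FPKM in yak, in the order Yak8 to Yak10. The groups did not overlap, and Yak10 stood above the other yaks. Its log2 (foldchange) was −0.68 (adjusted p = 8.4e-03 from limma), short of the threshold of 1, and reached −1.16 with median-of-ratios scaling. DMRT3 (ENSBGRG00000003946) had 2.50, 2.59 and 3.77 FPKM in cattle-yak and 1.98, 1.72 and 1.52 FPKM in yak. Again the groups did not overlap, with TES7 the highest library. The log2 (foldchange) of DMRT3 was 0.52 (adjusted p = 0.0239 from limma), equal to the median of all tested genes, and turned to −1.13 and −1.79 when centred on the spermatogonia and the Sertoli markers. DMRT3 rested on 145 fragments in cattle-yak and 97 in yak, so a low number of fragments limits its precision. DMRT1, DMRT2 and DMRT3 lie beside each other in the genomes of other mammals. With FPKM as deposited DMRT2 differed in direction from DMRT1 (both were negative when centred on the Sertoli markers), and the log2 ratio of DMRT2 to DMRT1 was −6.99 ± 0.30 in cattle-yak and −4.36 ± 0.14 in the yaks (SD, n = 3), chosen after the values were seen.

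DMRTA1 (ENSBGRG00000002642) varied more among the cattle-yak animals than between the groups. It had 0.51, 1.14 and 3.41 FPKM in TES5, TES6 and TES7, from 9, 19 and 59 fragments, against 1.89, 1.79 and 1.60 FPKM in Yak8, Yak9 and Yak10. The yak values fell within the range of the cattle-yak values. The log2 (foldchange) of −0.19 did not pass the test (95% interval −0.997 to 0.63, adjusted p = 0.636 from limma) and was −0.62 without TES7 (adjusted p = 0.0275), but turned to 0.16 without TES5 and to 0.08 when centred on the early spermatocyte markers.

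DMRTA2 (ENSBGRG00000008234) was close to the limit of detection in cattle-yak. It had 4, 4 and 0 fragments in TES5, TES6 and TES7 and 77, 33 and 63 in Yak8, Yak9 and Yak10. In FPKM these were 0.0718, 0.0760 and 0 in cattle-yak and 1.24, 0.535 and 1.03 in yak, and the count of 0 in TES7 allows up to 3 fragments, or 0.0549 FPKM. All yak libraries were above all cattle-yak libraries. Summed over the groups there were 8 fragments in cattle-yak (95% exact Poisson interval 3.45 to 15.8, for counting error only) and 173 in yak, a ratio of mean FPKM of 19.0. The exact permutation test (two-sided) on its FPKM gave p = 0.1, the smallest that 3 animals against 3 allow. With no minimum on the mean FPKM, limma gave a log2 (foldchange) of −0.87 (adjusted p = 1.1e-03), a value held down by the added 1 FPKM. A voom fit in limma on the recovered fragments, without a minimum and chosen after the data were seen, gave −4.48 (adjusted p = 6.6e-04).

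The order of the members by level differed between the groups. In cattle-yak it ran DMRT1, DMRTC2b, DMRTC2a, DMRTB1, DMRT3, DMRT2, DMRTA1 and DMRTA2, where the ranges of DMRT3 and DMRT2, and of DMRT2 and DMRTA1, overlapped. In yak it ran DMRT1, DMRTC2a, DMRTC2b, DMRTB1, DMRT2, DMRTA1, DMRT3 and DMRTA2, where those of DMRTC2b and DMRTB1, and of DMRTA1 and DMRT3, overlapped. In TES5 and TES7 DMRTC2b was above DMRTC2a only through the lengths of the gene models to which FPKM is scaled. The family summed to 593, 609 and 717 FPKM in TES5, TES6 and TES7 and to 220.5, 249 and 278 in Yak8, Yak9 and Yak10. DMRT1 made up 75.1% ± 3.62 of the family in cattle-yak and 49.6% ± 5.08 in the yaks (SD, n = 3). The share of DMRTC2a was 6.50% ± 1.99 in cattle-yak and 34.5% ± 4.24 in yak, and that of DMRTC2b 15.3% ± 2.55 and 6.58% ± 0.38 (SD, n = 3). DMRTB1 held 1.96% ± 0.42 and 5.43% ± 1.25 (SD, n = 3), although its FPKM overlapped between the groups. For each of these shares the groups did not overlap, and the exact permutation test (two-sided) gave p = 0.1, the smallest possible. The shares of a library are parts of the same whole, so a rise of DMRT1 lowers the others. DMRT3, for example, had a share of 0.46% in cattle-yak and 0.71% in yak, though its FPKM was higher in cattle-yak. The tests of shares therefore give no separate support for single genes.

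**Figure D3:**
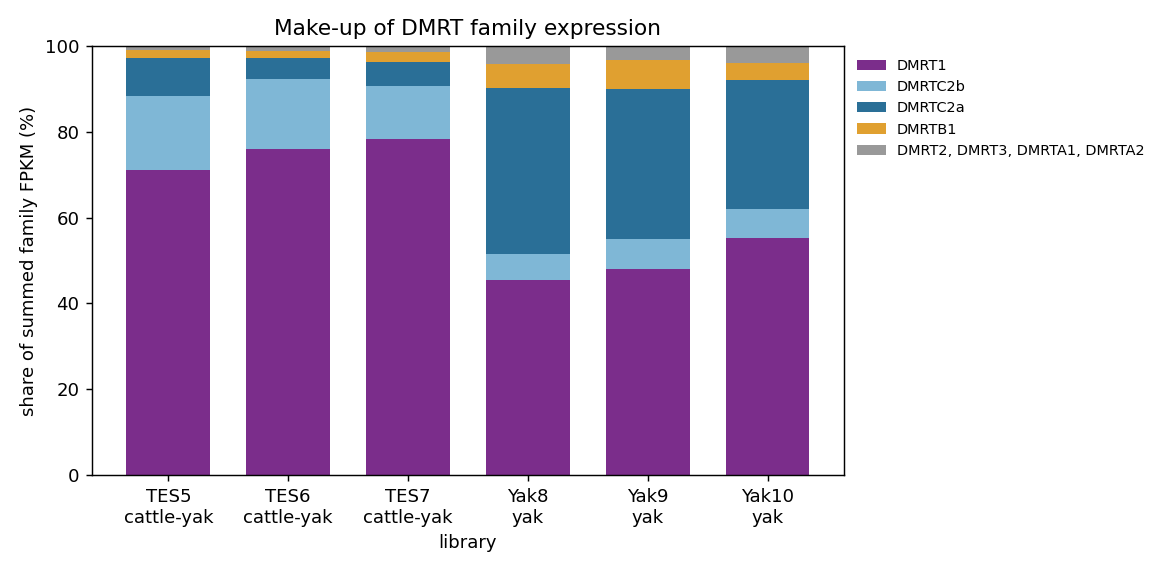
Share of each DMRT gene in the summed FPKM of the family (%), stacked to 100 for each of the 6 libraries. DMRT1 fills 71.2% to 78.3% of the bars of cattle-yak and 45.5% to 55.3% of those of yak, and DMRTC2a shrinks from at least 30.1% in yak to at most 8.78% in cattle-yak.

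Ratios between members within a library depend little on how the libraries were scaled, and they set genes of later stages against DMRT1. The log2 ratio of DMRTC2a to DMRT1, each with 1 FPKM added, was −2.99, −3.85 and −3.77 in TES5, TES6 and TES7 and −0.24, −0.45 and −0.87 in Yak8, Yak9 and Yak10. In each cattle-yak library DMRT1 exceeded DMRTC2a by 8.10 times or more, and in each yak library by 1.84 times or less. The group means differed by −3.02 on the log2 scale, and by −1.53 when both genes with the symbol DMRTC2 were summed. For DMRTB1 to DMRT1 the log2 ratio was −5.17 ± 0.26 in cattle-yak and −3.12 ± 0.45 in the yaks (SD, n = 3), a difference of −2.05. For DMRTC2a to DMRTB1 it was 1.63 ± 0.47 and 2.60 ± 0.23 (SD, n = 3), a difference of −0.97 that turned to 0.52 with the sum of both DMRTC2 genes. In each of the 3 ratios the groups were apart, and each gave p = 0.1 in the exact permutation test (two-sided, adjusted p = 0.1 over the 3 ratios), the smallest possible. Each difference is the log2 (foldchange) of the first gene minus that of the second, and the third ratio follows from the first 2. The 3 ratios are thus not separate support beyond the values of the single genes. Of the pairs looked at after the values were seen, DMRTC2b to DMRT1 differed least, with −2.30 ± 0.31 in cattle-yak and −2.84 ± 0.13 in the yaks (SD, n = 3).

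**Figure D4:**
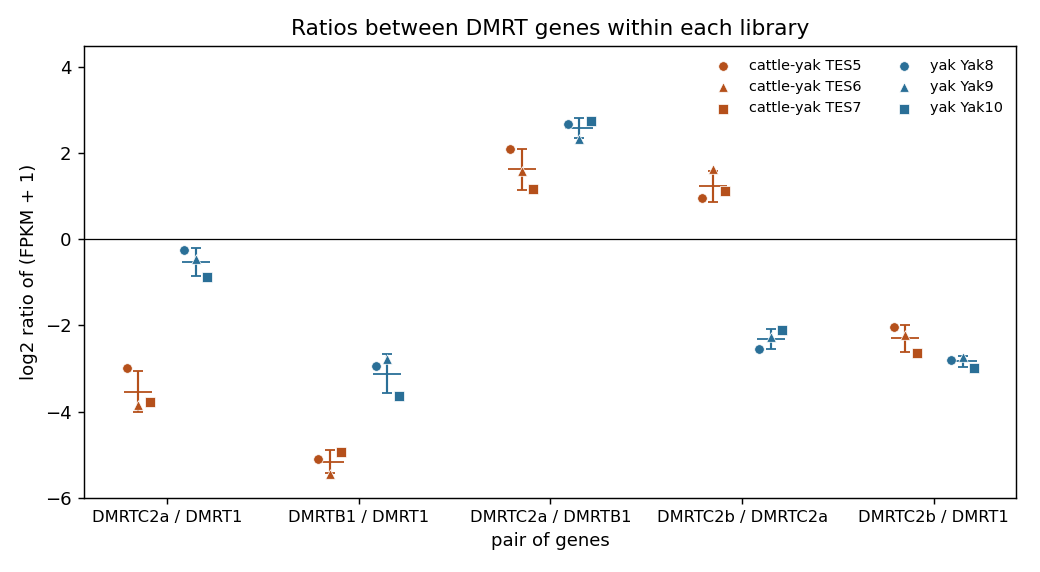
Log2 ratio of FPKM + 1 for 5 pairs of DMRT genes in each library, with marks for single animals, long dashes for group means and bars for 1 SD (n = 3). DMRTC2a to DMRT1 falls from between −0.87 and −0.24 in yak to between −3.85 and −2.99 in cattle-yak, and DMRTC2b to DMRTC2a changes sign between the groups. In TES5 and TES7 the sign of the latter rests on the lengths of the gene models to which FPKM is scaled.

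Centring on a list shifts every gene of a library by the same amount, so it moves the calls of all genes alike and leaves the distance of a member from the median of all genes as it was, for example 1.44 for DMRT1. With FPKM as deposited, with median-of-ratios scaling and when centred on the early spermatocyte markers, DMRT1 and DMRTC2b were called higher in cattle-yak. Centred on the spermatogonia or the Sertoli markers, no member was called higher and 5 were called lower, namely DMRTC2a, DMRT2, DMRTB1, DMRTA1 and DMRT3. Over all 15042 tested genes, 191 were called higher and 8187 lower with the spermatogonia list, and 28 higher and 11465 lower with the Sertoli list, and the counts of members are to be read against these. Under these scalings the log2 (foldchange) of DMRTC2a ran from −0.79 to −3.37. That of DMRT2 ran from −0.41, which did not pass the test (adjusted p = 0.289 from limma, early spermatocyte markers), to −2.98, and that of DMRTC2b from 0.18, which did not pass either (adjusted p = 0.294, Sertoli markers), to 2.76. No library was centred on the pachytene markers, so DMRTC2a was not tested relative to them. With FPKM as deposited their list median, −2.65, lay further below 0 than the −1.06 of DMRTC2a. Relative to that median DMRTC2a was thus higher in cattle-yak, although the markers AURKC and CDC25C, at 0.63 and −0.32, lay above it.

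**Figure D5:**
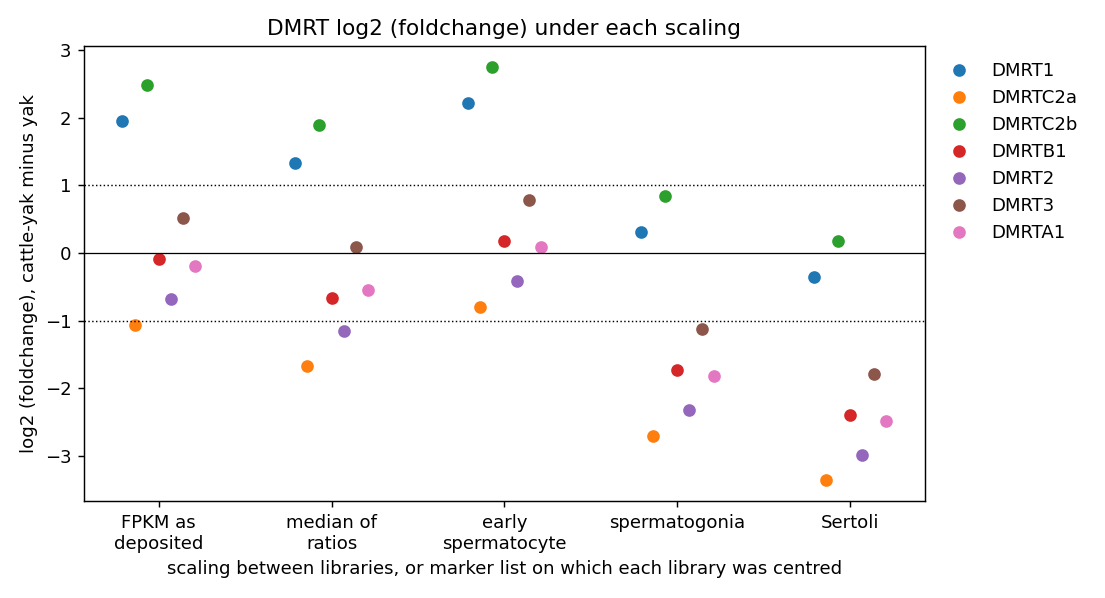
Log2 (foldchange) of the 7 tested DMRT genes (cattle-yak minus yak) with FPKM as deposited, with median-of-ratios scaling, and with each library centred on 1 of 3 marker lists, where dotted lines mark the threshold of 1 in either direction. Centring shifts all genes together, which brings DMRT1 to 0.31 and −0.35 against the spermatogonia and Sertoli lists and leaves DMRTC2a below 0 in every column shown. No column is centred on the pachytene markers, whose list median of −2.65 lay further below 0 than the −1.06 of DMRTC2a with FPKM as deposited.

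Lists of genes that work with DMRT proteins were described beside the members. Of 15 factors of gonadal sex, such as those that make or keep the Sertoli fate with DMRT1, 11 were tested, and SOX8, FOXL2, RSPO1 and WNT4 were under the minimum. Of these 11 genes 6 were called higher in cattle-yak and 0 lower with limma, where 33.4% and 20.8% of all tested genes were. The median log2 (foldchange) of the 11 genes was 1.23 against 0.51 over all tested genes. GATA4, a transcription factor of the gonadal soma, had the largest value, 2.64, and FGF9, a growth factor of the fetal testis, the smallest, −0.81 (adjusted p = 0.0178 from limma), which was not past the fold-change threshold. The list shares 5 genes with the Sertoli markers and 1 with the Leydig markers, and with the libraries centred on the Sertoli markers 0 of its genes were higher and 6 lower, where 11465 of 15042 genes were lower. With voom on fragments or smaller pseudocounts 8 genes were called higher and 1 lower, and 1 was also called lower with TPM, with median-of-ratios scaling and without TES6.

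Of 16 genes of spermatogonial differentiation and meiotic entry, the step that DMRT1 restrains and DMRTB1 accompanies, 14 were in the table and tested. In cattle-yak 9 were called higher and 1 lower, where 33.4% and 20.8% of all tested genes were. The median log2 (foldchange) of the list was 1.30, against 0.51 over all tested genes. CYP26B1, which degrades retinoic acid, had the largest value, 1.94, with 65.1 ± 26.0 FPKM in cattle-yak and 15.7 ± 3.57 in the yaks (SD, n = 3). ALDH1A2, which makes retinoic acid, was the gene called lower, with 65.2 ± 8.98 FPKM in cattle-yak and 200.1 ± 19.9 in the yaks (SD, n = 3), which gave −1.61 as the log2 (foldchange) (adjusted p = 7.4e-06 from limma). STRA8, SOHLH1 and KIT, named after their values were seen because DMRT1 or DMRTB1 is known to regulate them, had 1.56, 1.69 and 1.72. The 4 genes not called, also named after their values were seen, were DAZL (0.97), CCND2 (0.40), REC8 (0.17) and SOHLH2 (0.05). Centred on the spermatogonia markers 0 genes of the list were higher and 4 lower, where 8187 of 15042 genes were lower. With the Sertoli markers 0 were higher and 7 lower, where 11465 were lower. With median-of-ratios scaling 4 genes of the list were called higher, where 2655 of all tested genes were.

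DMRTC2 acts on the sex body, the compartment in which the X and Y chromosomes are silenced at pachytene. Of 14 genes of the sex body and pachytene chromatin, 3 were called higher and 2 lower, where 33.4% and 20.8% of all tested genes were, and 9 were not called. The median log2 (foldchange) of the list was 0.34, against 0.51 over all tested genes. HORMAD2, which marks unsynapsed axes, had 36.0 ± 13.8 FPKM in cattle-yak and 147.0 ± 31.5 in the yaks (SD, n = 3), the smallest log2 (foldchange) of the list at −2.04 (adjusted p = 9.9e-05 from limma). MDC1, the adaptor that spreads the DNA damage signal over the sex chromosomes, was the other gene called lower, at −1.55 (adjusted p = 1.9e-04 from limma). SCML2, a Polycomb protein of the germ line, had the largest value, 1.30, while the 2 other genes called higher, CBX1 and CBX3 (named after their values were seen), each share their symbol with other genes of the table and are uncertain. With median-of-ratios scaling 0 genes of the list were called higher, where 2655 of all tested genes were.

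The GO annotation deposited with the values held terms for 7 of the 8 members, all but DMRT3. The terms nucleus, metal ion binding and protein homodimerization activity stood on all 7. Terms of sex or germ cells differed among them. DMRT1 carried male sex determination, Sertoli cell differentiation and both negative regulation of meiotic nuclear division and positive regulation of meiosis I, both DMRTC2 genes carried sex differentiation, DMRTA1 carried ovarian follicle development, and DMRTB1 carried none of this kind. None of the 8 had a KEGG pathway in the table.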

How the data were processed

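Per the methods of the study, the authors used Trimmomatic for trimming and HISAT2 for alignment, with the yak genome as reference also for cattle-yak, and Cufflinks for the FPKM values. The deposited FPKM values were scaled to the depth of each library, with no further scaling between libraries. Reads of cattle alleles in the cross were thus mapped to yak, and the effect of this on the DMRT genes was not tested. The columns were matched to samples by their titles, and groups were taken from the labels. Depths and whole fragments were recovered from the FPKM values (17973 genes, within 0.03 of a whole fragment). On simulated data 98.6% of 17624 genes returned their fragments.

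The whole table was fitted with limma 3.58.1 in R 4.3.3 (lmFit, eBayes with a variance trend, two-sided) on log2 (FPKM + 1), which understates changes of low genes. On simulated data of this comparison with 200 of 14962 genes changed 4-fold, 191 were called, beside 4 unchanged genes. Ratios and single values were compared by exact permutation tests (two-sided, 10 distinct splits). Python 3.11.15, numpy 2.4.6, pandas 2.3.3, scipy 1.17.1 and matplotlib 3.10.9 were used. Alternatives were other pseudocounts, filters, scalings, variance priors, voom on fragments, no fold-change threshold and the omission of each animal. To centre on a list, each library was shifted by the mean log2 (FPKM + 1) of its tested genes. Where a symbol of a list stands on several genes, the most abundant was used. Marker lists are given by their sums and counts. The genes named are the members, the extremes of each list, any gene called against a list's median and, for each member with at least 5 FPKM on average, the 3 genes most like it. The members and lists were chosen with earlier results of these data known. Histology, RT-qPCR and splicing were not analysed here, and no sequences were used.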

Additional observations from a re-analysis of the deposited data

How the results depend on the processing

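Of the members, 2 were called higher in cattle-yak under every alternative except for centring on the Sertoli or the spermatogonia markers, where 0 were, and the omission of the fold-change threshold, where 3 were. The 1 called lower became 2 with median-of-ratios scaling, where 4173 of the 15042 tested genes were lower, and 2 with no fold-change threshold, where 4399 were. The count became 5 with either of those centrings and 0 with centring on the early spermatocyte markers. Centring moves all genes alike, and of 15042 tested genes 11465 were called lower with the Sertoli, 8187 with the spermatogonia and 2642 with the early spermatocyte list. With each animal left out in turn, 2 members were higher and 0 to 1 lower, the 0 without TES6. Directions turned for DMRT1 (−0.35, Sertoli), DMRT3 (−1.79, Sertoli, and −1.13, spermatogonia), DMRTA1 (0.085, early spermatocyte, and 0.16 without TES5, from a range of −0.62 to 0.16 without 1 animal) and DMRTB1 (0.18, early spermatocyte, 0.073 without TES6 and 0.053 without Yak9, from a range of −0.32 to 0.073). The difference in the ratio of DMRTC2 to DMRT1 was −3.02, moved to −1.53 with the sum of both DMRTC2 genes and lay between −3.29 and −2.86 without 1 animal. That of DMRTB1 to DMRT1 lay between −2.31 and −1.88. That of DMRTC2 to DMRTB1 lay between −1.21 and −0.74 and turned to 0.52 with the sum, whose construction brings in DMRTC2b (exact permutation test, p = 0.3). No paired analysis was possible because the animals of the groups share no numbers in the labels. Depth limits DMRTA2, DMRTA1 and DMRT3, which rest on fewer than 200 fragments in a group, and 3 animals a group cannot give a permutation p below 0.1.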

Other observations

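As a description, the 12619 tested genes with a symbol of their own were ranked by Pearson's r with each of the 4 members above 5 FPKM, over the log2 (FPKM + 1) of the 6 libraries. The libraries form 2 groups, so r mostly reflects the group difference, and nothing about shared function or control follows from it. Closest to DMRT1 were MOSPD2 (r = 0.9993), ZUP1 (r = 0.9991) and EPS15L1 (r = 0.9991), with 33.2 ± 2.19, 17.2 ± 1.53 and 14.6 ± 1.18 FPKM in cattle-yak and 14.7 ± 1.83, 5.69 ± 1.27 and 4.81 ± 0.80 in the yaks (SD, n = 3). Closest to DMRTC2a were M1AP, a meiotic gene (r = 0.998, log2 (foldchange) −1.41), DPCD (r = 0.998, −0.61) and TIMP4 (r = 0.997, −0.54). Closest to DMRTC2b were F10 (r = 0.9996, 3.37), which encodes coagulation factor X, KLHL35 (r = 0.9994, 0.84) and MPZL1 (r = 0.9992, 2.89). DMRTB1, whose groups overlap, was followed by HSPA5 (r = 0.979), an endoplasmic reticulum chaperone with 399 ± 61.9 FPKM in cattle-yak and 414 ± 44.2 in the yaks (SD, n = 3), GRB7 (r = 0.969) and SPC25 (r = 0.941), a kinetochore protein.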
